A study of Mus musculus with 14 samples.

Results

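The TGF-beta ligands Tgfb1, Tgfb2 and Tgfb3, the latent TGF-beta binding proteins Ltbp1, Ltbp2 and Ltbp3, the signaling receptors Tgfbr1 and Tgfbr2 and the co-receptors Tgfbr3 and Eng were taken by gene name from the deposited expression table. All 10 were found among its 15894 genes, each as 1 entry. RNA had been measured in the dissected epicardium and subepicardium of fetal mouse hearts at E16.5, the outer layer of the ventricles in which coronary vessels and lymphatics grow. Each library was made from 2 hearts pooled together. There were 3 female ventral and 3 female dorsal libraries, numbered 1 to 3, and 4 male ventral and 3 male dorsal libraries, numbered 4 to 7 and 4 to 6. All hearts were untreated and carry the genotype label Tbx18Cre, a Cre driver active in the epicardium, with no floxed allele named, whereas the study's text calls them wild type. A further male library, numbered 7, is dorsal by its title and source name but ventral by its tissue field. It entered no comparison, and only its values are given.

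Reads on the listed genes numbered 13918995 to 25221314 per library, and 3 reads, taken as the floor of detection, equalled 0.135 to 0.253 normalized CPM. In the 4 groups Tgfb1 and Ltbp2 had at most 50 and 161 reads per library, and the other 8 members had 227 to 4339. Values are in normalized CPM, that is, reads per library after the scaling that the authors applied. The tissue was dissected and not sorted, so that fewer cells of a type and less RNA per cell cannot be told apart in any difference below. Female and male libraries carry different numbers, and what a number marks is not stated, so that sex and number cannot be told apart either. Whether the ventral and dorsal libraries of 1 number came from the same hearts is not stated. P-values therefore measure the spread between libraries, and fits without a replicate block treat all libraries as independent.

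TGF-beta ligands are secreted as inactive complexes. The mature dimer stays bound to its own propeptide, and latent TGF-beta binding proteins tie this complex to fibrils of the extracellular matrix, from which integrins and proteases release it. The released ligand joins the type II receptor Tgfbr2 to the type I receptor Tgfbr1, which phosphorylates Smad2 and Smad3, and these enter the nucleus with Smad4. In the fetal heart this pathway is known for driving epicardial cells into the subepicardium and for the formation of cushions, vessels and matrix.

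In female hearts, Ltbp3, Tgfb3, Tgfbr2 and Ltbp1 were higher on the ventral than on the dorsal side. Ltbp3 changed most, by 2.07 on the log2 scale. Tgfb2, Tgfbr1, Tgfbr3, Eng, Ltbp2 and Tgfb1 did not pass the test. In limma on log2 of the value plus 1, adjusted over all genes by Benjamini-Hochberg with a threshold of 0.05, 4 of the 10 members were thus called, all of them higher ventrally. The same fit called 27.8% of all 14411 genes tested, and 14.5% of all genes as higher ventrally. The members' median change was 0.36 on the log2 scale, and that of all genes tested was 0.01. Ltbp3, Tgfb3 and Tgfbr2 were also the 3 members whose female ventral and dorsal libraries did not overlap, a property of 44.8% of all genes tested. Without female dorsal library 1, which stood apart in its atrial cardiomyocyte markers, 5 members were called; without female ventral library 2 the number was 2.

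**Figure D1:**
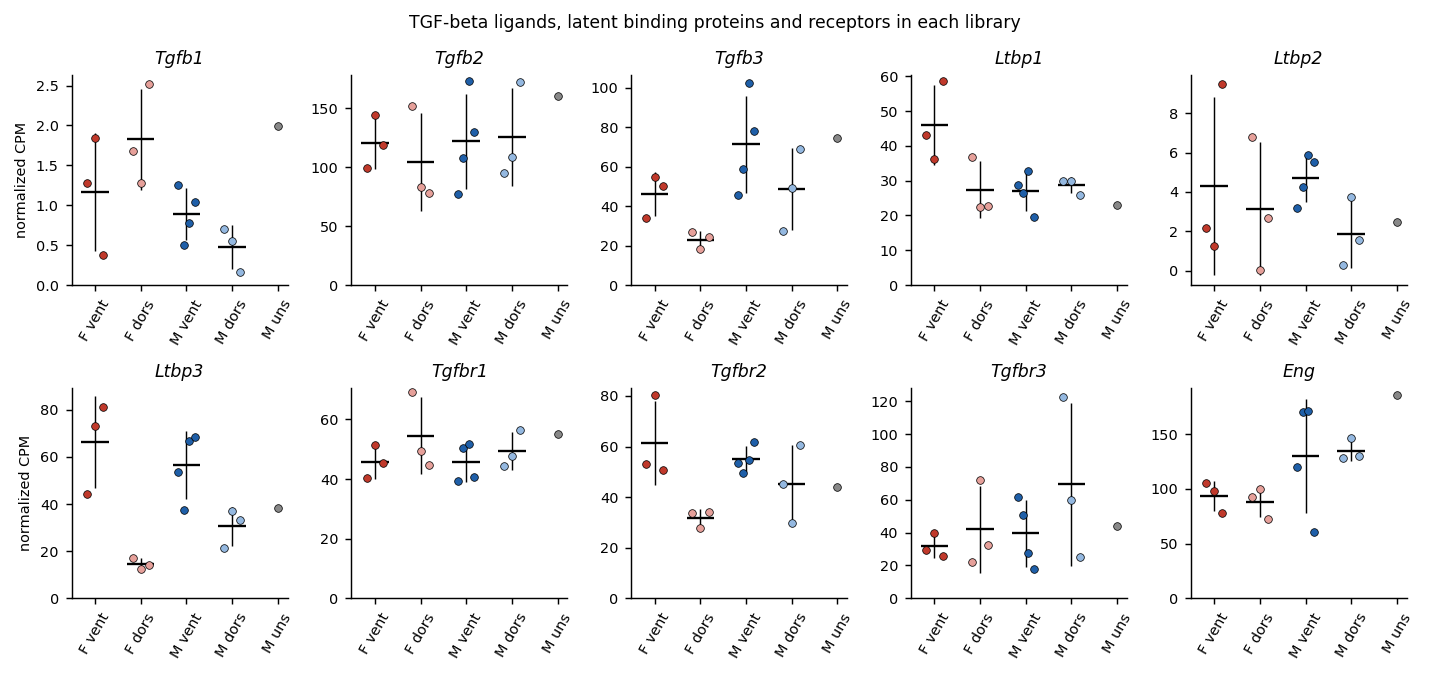
Normalized CPM (vertical axes, linear, each panel with its own scale) of the 10 genes in the female ventral (F vent), female dorsal (F dors), male ventral (M vent) and male dorsal (M dors) libraries and in the male library of unsettled region (M uns). Points are libraries, horizontal bars are means and vertical lines are SD. The 3 female ventral libraries lie above the 3 female dorsal ones for Ltbp3, Tgfb3 and Tgfbr2, while those of Tgfb2, Tgfbr1, Tgfbr3 and Eng mix.

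Of the ligands, Tgfb3 (chromosome 12 of GRCm38, 86056745 to 86079041, minus strand) was the only one whose regional change passed the test. It read 33.8, 55.0 and 50.0 normalized CPM in female ventral libraries 1, 2 and 3, and 26.7, 18.1 and 24.3 in the dorsal libraries of the same numbers. Every female ventral library stood above every dorsal one, the closest being ventral 1 and dorsal 1. The means were 46.3 ± 11.1 and 23.0 ± 4.44 (SD, n = 3 each), and the log2 change was 0.96 (limma, standard error 0.226, 95% interval 0.46 to 1.47, adjusted p = 0.0128). The call was lost without female ventral library 2 (adjusted p = 0.0605) and held in the other 15 of 16 alternatives. In male hearts Tgfb3 read 45.9, 58.7, 102.6 and 78.0 in ventral libraries 4 to 7 and 27.4, 49.3 and 69.2 in dorsal libraries 4 to 6. The male groups overlapped, and the log2 change of 0.58 did not pass (standard error 0.331, 95% interval -0.16 to 1.31, adjusted p = 0.447). It ran from 0.22 without male dorsal library 4 to 0.87 without male dorsal library 6. Within each number, however, the ventral library was the higher one in 6 of 6 pairs, by 1.19-fold (number 5) to 3.04-fold (number 2). Only Ltbp3 among the other members did the same, and 9.36% of all genes tested were higher ventrally in all 6 pairs. Gm37804 or Gm48008 also hold 8.21% of the 60-base stretches of Tgfb3 transcripts, so that its reads could in part be shared with these genes.

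Tgfb2 (chromosome 1, 186622792 to 186705989, minus strand), the ligand with the most reads, showed no such difference. In female hearts it read 99.4, 144.1 and 118.7 ventrally and 152.1, 83.1 and 77.9 dorsally. The highest female value belonged to dorsal library 1, and the groups overlapped. The log2 change was 0.26 (95% interval -0.29 to 0.81, adjusted p = 0.465) and reached 0.56 (adjusted p = 0.0498) without female dorsal library 1, the library with the high atrial markers. Male values were 77.1, 107.8, 173.1 and 129.8 ventrally and 94.9, 108.9 and 172.6 dorsally, with a log2 change of -0.05 (95% interval -0.67 to 0.57). Both male groups spanned nearly the same range.

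Tgfb1 (chromosome 7, 25687002 to 25705077, plus strand) was close to the limit of detection in this tissue. It had 3 to 50 reads per library in the 4 groups, which made 0.38 to 1.84 normalized CPM in female ventral, 1.28 to 2.52 in female dorsal, 0.50 to 1.25 in male ventral and 0.17 to 0.70 in male dorsal libraries. Male dorsal library 6 was at the floor. The female log2 change of -0.42 had an interval from -1.26 to 0.41 (adjusted p = 0.432), and in males Tgfb1 did not pass the filter of 1 normalized CPM in 3 libraries. No regional difference of Tgfb1 passed the test.

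Divided by transcript length, the ligands could be set beside each other. This view was chosen after the values had been seen, and it is given as a description. Tgfb3 made up 33.3% to 38.7% of the summed level per kilobase of the 3 ligands in female ventral libraries and 20.6% to 30.5% in female dorsal ones. In males the shares were 44.9% to 47.2% ventrally and 30.0% to 40.4% dorsally. The ventral and dorsal libraries did not overlap in either sex, but how often other ratios of genes do so was not computed. Of single genes tested, 44.8% did not overlap in females and 14.0% in males. In males neither Tgfb3 nor Tgfb2 alone passed the test. Tgfb2 held most of the remainder, from 51.6% in male ventral library 4 to 77.4% in female dorsal library 1, and Tgfb1 at most 4.92%.

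**Figure D2:**
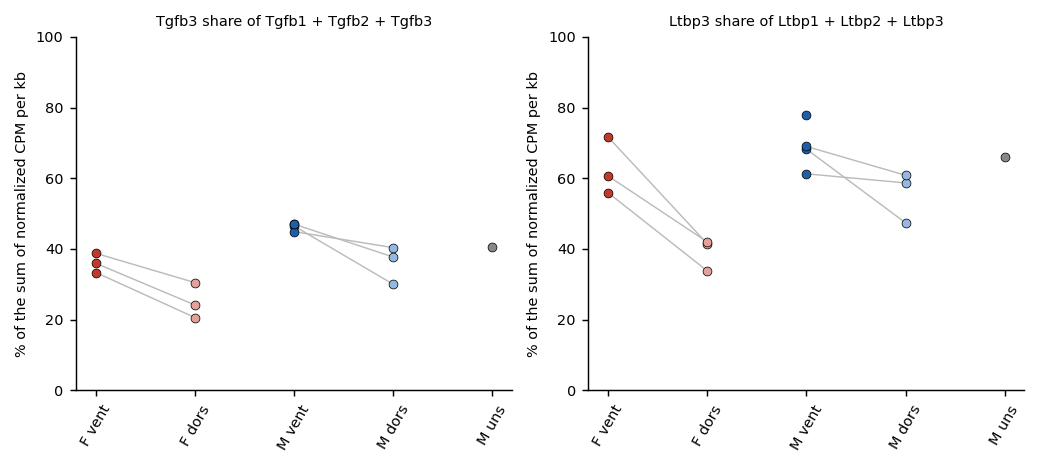
Tgfb3 as a percentage of the summed normalized CPM per kilobase of Tgfb1, Tgfb2 and Tgfb3 (left) and Ltbp3 as a percentage of that of Ltbp1, Ltbp2 and Ltbp3 (right), in each library; gray lines join the ventral and dorsal libraries of 1 number. Both shares are higher in the ventral library of all 6 numbers, and the male library of unsettled region has 40.6% and 66.1%. The shares were chosen after the values had been seen. Of single genes tested, 9.36% were higher ventrally in all 6 pairs, and the figure for other ratios was not computed.

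Ltbp3 (chromosome 19, 5740904 to 5758532, plus strand), which binds the latent complexes of TGF-beta, had the largest regional change of the 10 genes in female hearts. Female ventral libraries 1, 2 and 3 read 44.4, 73.3 and 81.2 normalized CPM, and female dorsal libraries 17.3, 12.4 and 14.3. The lowest ventral library stood 2.57-fold above the highest dorsal one, both being number 1, and the pairs numbered 2 and 3 differed by 5.92-fold and 5.68-fold. The means were 66.3 ± 19.4 and 14.7 ± 2.47 (SD, n = 3 each), a log2 change of 2.07 (limma, standard error 0.243, 95% interval 1.53 to 2.61, adjusted p = 0.000707). It was called in 16 of 16 alternatives. In male hearts Ltbp3 read 53.5, 37.5, 66.6 and 68.6 ventrally and 21.2, 37.2 and 33.2 dorsally. These groups did not overlap either, although ventral library 5 and dorsal library 5 were nearly equal (1.01-fold). The male log2 change was 0.87 (standard error 0.257, 95% interval 0.30 to 1.44) and was not called (adjusted p = 0.285).

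Ltbp1 (chromosome 17, 75005568 to 75392512, plus strand) had a smaller change, in female hearts only a little past the threshold. Its female ventral values were 43.0, 36.1 and 58.5 and its dorsal ones 36.9, 22.5 and 22.8, so that ventral library 2 lay just below dorsal library 1. The log2 change was 0.73 (limma, standard error 0.243, 95% interval 0.19 to 1.28, adjusted p = 0.0485). This call rested on single settings: it held in 4 of 16 alternatives, and the adjusted p ranged from 0.0187 to 0.312. It was lost when any 1 female ventral library, or dorsal library 2 or 3, was left out. Male libraries read 28.9, 26.4, 32.7 and 19.6 ventrally and 29.9, 30.0 and 26.0 dorsally, a log2 change of -0.11 (95% interval -0.57 to 0.35). All male values were within the range of the female dorsal ones or slightly below it.

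Ltbp2 (chromosome 12, 84783212 to 84876532, minus strand), which binds matrix fibrils but no latent TGF-beta, was measured at few reads and varied widely. Female ventral libraries read 2.17, 1.27 and 9.47 and dorsal libraries 6.77, 0.0272 and 2.67, where the value for dorsal library 2 stands for 0 reads. The male values were 3.20, 4.23, 5.88 and 5.51 ventrally and 0.30, 3.75 and 1.54 dorsally. Neither the female change of 0.45 (95% interval -1.22 to 2.13, adjusted p = 0.685) nor the male one of 1.16 (95% interval 0.17 to 2.15, adjusted p = 0.309) was called. D030025P21Rik shares 8.43% of its 60-base stretches.

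As a share of the 3 binding proteins per kilobase, Ltbp3 held 55.9% to 71.6% in female ventral and 33.8% to 42.0% in female dorsal libraries, and 61.2% to 77.9% and 47.4% to 60.8% in male ones. Among these 3, Ltbp1 led in female dorsal libraries (52.0% to 58.5%) and Ltbp3 in every female ventral library. The comparison of shares, too, was chosen after the values had been seen. It leaves out Ltbp4, a further binding protein of the family, with means of 127.9 normalized CPM in female ventral and 40.5 in female dorsal libraries. Before division by length, these were above the means of Ltbp3 (66.3 and 14.7) and Ltbp1 (45.9 and 27.4).

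Promoter sequence from RefSeq (GRCm38.p6, the 250 bases before a transcript start, read on the gene's strand) was at hand for 8 of the 10 genes, in 10 windows. The windows of the 3 genes that were higher ventrally and had one are printed here, since these genes moved in the same direction. Of Ltbp1 the first of its windows is given. The bases after the start were found at the opening of a GENCODE M21 transcript for every window except those of Ltbp1. The start used for Ltbp1 is therefore less certain. Capitals mark CAGAC or its reverse complement GTCTG, the Smad box to which Smad3 and Smad4 bind, since TGF-beta signaling reaches the nucleus through these proteins.
Ltbp3, chr19:5740650-5740899, plus strand: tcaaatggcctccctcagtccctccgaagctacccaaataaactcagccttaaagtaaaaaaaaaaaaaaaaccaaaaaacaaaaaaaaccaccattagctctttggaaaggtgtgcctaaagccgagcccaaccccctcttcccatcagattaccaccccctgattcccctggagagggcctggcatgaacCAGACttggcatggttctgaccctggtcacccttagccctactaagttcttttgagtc
Tgfbr2, chr9:116175364-116175613, minus strand: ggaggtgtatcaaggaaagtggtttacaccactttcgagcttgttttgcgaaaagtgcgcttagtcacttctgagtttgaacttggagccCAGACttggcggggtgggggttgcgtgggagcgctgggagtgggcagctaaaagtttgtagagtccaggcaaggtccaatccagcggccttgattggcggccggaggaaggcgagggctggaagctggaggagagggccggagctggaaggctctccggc
Ltbp1, chr17:75005279-75005528, plus strand: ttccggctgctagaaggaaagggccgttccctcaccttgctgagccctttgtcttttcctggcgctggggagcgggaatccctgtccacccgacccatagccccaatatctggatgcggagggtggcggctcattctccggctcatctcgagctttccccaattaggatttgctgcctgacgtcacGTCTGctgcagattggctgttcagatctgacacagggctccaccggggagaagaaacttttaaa
Each of the 3 windows holds 1 Smad box. Members that were not called have them too: the windows of Tgfb2, Eng and Ltbp2 hold 2 each. Window 2 of Tgfbr1 holds 1, and its window 1 and that of Tgfb1 hold 0. Over both strands, 8 of the members' 10 windows hold at least 1, against 42.2% of all 32851 windows of this length in the table. Further motifs were searched in the same way. A GC box (GGGCGG) was in 3 of the 10 windows (32.7% of all windows), an AP-1 site (TGANTCA) in 0 (6.75%) and a CRE (TGACGTCA) in 1 (1.55%). The CRE lies in the Ltbp1 window printed here, just before its Smad box, with 1 base between them. A match describes the letters only and shows neither binding nor use.

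Among the signaling receptors, Tgfbr2 (chromosome 9, 116084293 to 116175360, minus strand), the type II receptor that binds the ligand first, was higher ventrally in female hearts. It read 52.9, 80.6 and 50.7 normalized CPM ventrally and 33.6, 27.7 and 34.0 dorsally, without overlap. The means of 61.4 ± 16.6 and 31.8 ± 3.53 (SD, n = 3 each) gave a log2 change of 0.90 (limma, standard error 0.201, 95% interval 0.45 to 1.35, adjusted p = 0.0100). After each library was corrected for GC content and length, the change was 0.51 and the call was lost (adjusted p = 0.0678). Male ventral libraries read 53.4, 49.6, 54.8 and 62.0, and male dorsal libraries 45.0, 29.8 and 60.7. Dorsal library 6 lay within the ventral range, and the log2 change of 0.33 was not called (95% interval -0.17 to 0.83, adjusted p = 0.514). This change rested on single pools, being 0.065 without male dorsal library 5 and 0.57 without male dorsal library 6.

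The type I receptor Tgfbr1 (chromosome 4, 47353222 to 47414931, plus strand) was the most even of the 10 genes. Its 13 values ran from 39.3 to 69.1 normalized CPM, with 40.3, 51.5 and 45.3 in female ventral, 69.1, 49.5 and 44.8 in female dorsal, 39.3, 50.4, 51.8 and 40.7 in male ventral and 44.2, 47.7 and 56.5 in male dorsal libraries. The groups of both sexes overlapped. Log2 changes were -0.23 in females (95% interval -0.65 to 0.19, adjusted p = 0.393) and -0.12 in males (95% interval -0.50 to 0.26, adjusted p = 0.768).

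Neither co-receptor had a regional change that passed. Tgfbr3 (betaglycan; chromosome 5, 107106570 to 107289629, minus strand), which presents ligands to Tgfbr2, varied mostly between pools. It ran from 25.8 to 39.6 in female ventral, from 21.9 to 71.8 in female dorsal, from 17.7 to 61.6 in male ventral and from 25.0 to 122.8 in male dorsal libraries. Male dorsal library 4 was the highest of all. The log2 changes were -0.24 in females (95% interval -1.06 to 0.57) and -0.68 in males (95% interval -1.85 to 0.49). The male change was -0.13 without dorsal library 4 and -1.26 without dorsal library 6. Eng (endoglin; chromosome 2, 32646595 to 32682669, plus strand), a co-receptor chiefly of endothelial cells, read 104.9, 97.9 and 78.3 in female ventral and 92.4, 100.2 and 72.8 in female dorsal libraries. Its male values were 120.2, 169.8, 170.8 and 60.6 ventrally and 128.4, 146.1 and 130.4 dorsally. Male ventral library 7 was the lowest for Eng, and it also had the lowest sum of 8 blood endothelial markers, 278 normalized CPM against 598 to 739 in the other male ventral libraries. The log2 changes of Eng were 0.08 in females (95% interval -0.29 to 0.46) and -0.16 in males (95% interval -0.86 to 0.54), and the male one was 0.17 without ventral library 7.

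**Figure D3:**
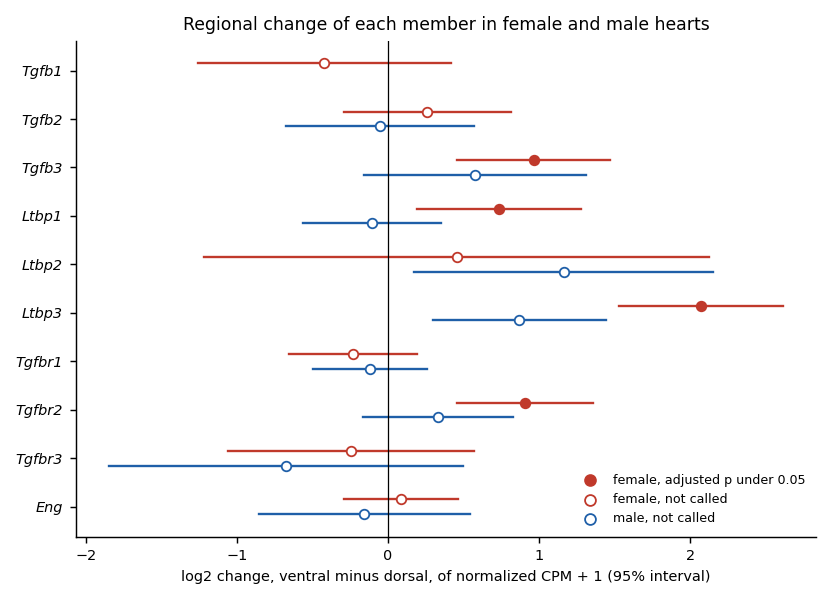
Log2 change (ventral minus dorsal, of normalized CPM plus 1) of each gene in female (red) and male (blue) hearts, with 95% intervals from limma. Filled points passed an adjusted p under 0.05: Ltbp3, Tgfb3, Tgfbr2 and Ltbp1 in females, and none in males, where Tgfb1 was not tested.

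In male hearts 0 of the 9 members tested were called by limma. No gene of the 14917 tested was (0.0%), although 2083 had an unadjusted p under 0.05, among them Ltbp3 and Ltbp2. The count test of edgeR called 0 members and 0 genes as well, and with the library number as a block limma called 76 genes, of which 0 were members. Ltbp3 was the only member whose male groups did not overlap, as was true of 14.0% of all genes tested.

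Whether the regional change differed between the sexes was tested itself. No member was called, while 2.73% of all 15772 genes were; edgeR called 0 members and 380 genes. At an unadjusted p under 0.05 there were 2 members and 2428 genes. For Ltbp3 the male minus the female change was -1.20 on the log2 scale (limma, 95% interval -2.01 to -0.39, adjusted p = 0.123), and for Ltbp1 it was -0.84 (95% interval -1.54 to -0.14, adjusted p = 0.223). For Tgfb3 the difference was -0.39 (95% interval -1.35 to 0.57) and for Tgfbr2 -0.57 (95% interval -1.26 to 0.11). None passed after adjustment, so that calls in female and not in male hearts do not show that the sexes differ.

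With both sexes in 1 fit and sex as a covariate, Ltbp3, Tgfb3 and Tgfbr2 were higher ventrally. The changes were 1.43 for Ltbp3 (limma, standard error 0.241, adjusted p = 0.00656), 0.76 for Tgfb3 (standard error 0.225, adjusted p = 0.0303) and 0.60 for Tgfbr2 (standard error 0.174, adjusted p = 0.0279). These 3 of 10 members compare with 18.9% of all 15772 genes called and 9.8% called higher ventrally. Over all genes 1545 were higher and 1429 lower ventrally, and 1016 and 1739 after the correction for GC content and length. With the library number as a replicate block the Tgfbr2 call was lost (log2 change 0.59, adjusted p = 0.0554), whereas Ltbp3 (adjusted p = 0.0221) and Tgfb3 (adjusted p = 0.0262) were still called. After the correction for GC content and length the change of Tgfbr2 was 0.36 and was not called either (adjusted p = 0.135), nor with the replicate block as well (0.33, adjusted p = 0.210). Ltbp3 was called in 23 of 23 alternatives. Tgfb3 was lost without female ventral 2 or 3, female dorsal 2 or 3, male ventral 6 or male dorsal 4 (adjusted p up to 0.0759). Tgfbr2 was lost without female ventral 2, any 1 female dorsal library or male dorsal 5 (adjusted p up to 0.0714). The members' median change was 0.19, beside 0.03 over all genes tested.

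Between the sexes, over both regions, Tgfb3 was the only member that passed, higher in male hearts by 0.76 on the log2 scale (limma with region as a covariate, standard error 0.225, adjusted p = 0.0409). Ventral means were 46.3 ± 11.1 in females and 71.3 ± 24.7 in males (SD, n = 3 and 4), and dorsal means 23.0 ± 4.44 and 48.6 ± 20.9 (n = 3 each). The fit called 10.9% of all genes, and 4.4% as higher in males. It also called 6 of 12 epicardial markers and 1 of 7 fibroblast markers higher in males, and 0 of either list lower. The part of cell composition in the Tgfb3 difference was not tested. The Tgfb3 call held in 10 of 22 alternatives. It was lost without female ventral 1 or 3, any 1 female dorsal library, male ventral 6 or 7, or male dorsal 5 or 6, and with the libraries of 1 number averaged its adjusted p was 0.122. Eng was higher in males by 0.48 without passing (adjusted p = 0.137), and by 0.66 with an adjusted p of 0.00424 when male ventral library 7 was left out.

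Per kilobase of transcript, and over the 13 libraries of settled region, Eng had the highest level of the 10 genes (33.1 ± 10.2 normalized CPM per kilobase, mean ± SD). It was followed by Tgfb2 (23.1 ± 6.57), Tgfb3 (14.5 ± 7.15), Tgfbr1 (8.43 ± 1.39), Ltbp3 (8.31 ± 4.57), Tgfbr3 (7.42 ± 4.76), Tgfbr2 (6.03 ± 1.85) and Ltbp1 (4.76 ± 1.55). Ltbp2 (0.532 ± 0.405) and Tgfb1 (0.495 ± 0.306) came last. Ranges of neighbors in this order overlapped, except those of Ltbp1 and Ltbp2. Tgfb2 was above Tgfb3 in all 13 libraries, and Tgfbr1, Ltbp3 and Tgfbr3 changed places from library to library.

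Markers of epicardium, fibroblasts, macrophages and lymphatic endothelium differed between the regions of female hearts in the same direction as the called members. The counts below stand beside 14.5% of all genes called higher and 13.3% called lower ventrally in females. The summed level of 12 epicardial markers ran from 1855 to 3033 normalized CPM in female ventral and from 295 to 670 in female dorsal libraries, and 12 of the 12 were called higher ventrally. The sum of 7 fibroblast markers ran from 8450 to 15969 and from 2171 to 3450. Of these, 5 of 7 were called higher (Col1a1, Col3a1, Dcn, Dpt and Pdgfra), and Tcf21 and Lum were not. Col1a1 and Col3a1 held most of this sum, with means of 5434 and 4608 ventrally and 970 and 885 dorsally. The sum of 6 macrophage markers ran from 206 to 416 and from 67 to 122 (5 of 6 higher). For the 6 lymphatic endothelial markers, of which Ccl21a has 2 entries, the sums were 395 to 1960 and 148 to 290 (5 of 7 entries higher). Smooth muscle markers went the other way, with 745 to 1151 against 1269 to 1575 (3 of 6 lower and 1 higher). Blood endothelial markers summed to 465 to 765 and 557 to 685 (0 of 8 called), and the 10 ventricular cardiomyocyte markers to 21314 to 30709 and 29344 to 45104 (1 higher). Of the 4 atrial markers 1 was lower ventrally, with sums of 766 to 1391 and of 491 to 12455, and of the 3 erythroid markers listed 1 was lower (39 to 85 and 66 to 122). No marker listed was at 3 reads or fewer in all libraries of a group.

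In male hearts the epicardial sums were 2099 to 6475 ventrally and 1701 to 4502 dorsally, and the fibroblast sums 8488 to 20059 and 5730 to 10155. Both overlapped, as did those of Tgfb3 and Tgfbr2, and 0 markers of any list were called. Within numbers 4, 5 and 6, however, the fibroblast sums were higher ventrally (8488, 9839 and 20059 against 5730, 8247 and 10155). So were the macrophage sums (243, 262 and 480 against 120, 236 and 254). The epicardial sums were higher ventrally in numbers 4 and 6 and slightly lower in number 5 (2099 against 2182). The ventricular cardiomyocyte sums did not overlap, at 17311 to 32925 ventrally and 35580 to 44963 dorsally, the direction opposite to that of Ltbp3, whose male regions were separate too. Over the 4 groups, epicardial and fibroblast sums, Ltbp3 and Tgfb3 were each lowest in the 3 female dorsal libraries. The part of this cell composition in the regional changes of Ltbp3, Tgfb3, Tgfbr2 and Ltbp1 was not tested.

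**Figure D4:**
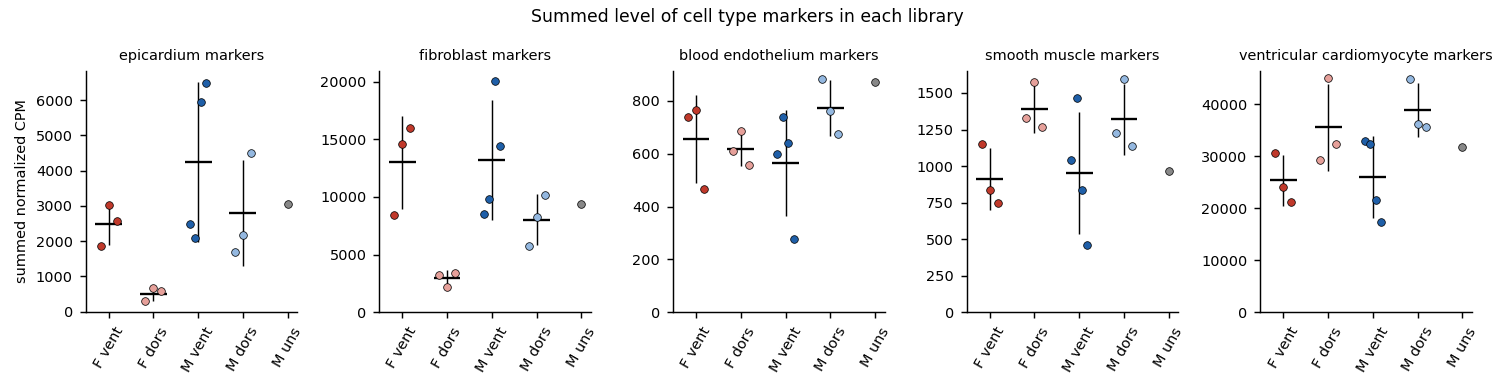
Summed normalized CPM (vertical axes, linear) of the marker genes of 5 cell types in each library, with means (horizontal bars) and SD (vertical lines); group names as in the plot of the 10 genes by library. Epicardial (1855 to 3033 against 295 to 670) and fibroblast sums (8450 to 15969 against 2171 to 3450) separate female ventral from female dorsal libraries, and blood endothelial sums do not.

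Genes that act with the members in the pathway were followed in 5 lists. In female hearts, genes of latency and activation were the list with the most calls: 9 of 13 tested were higher ventrally and 0 lower, with a median log2 change of 1.02, beside the 14.5% of all genes called higher ventrally. Ltbp4, the remaining binding protein of the family, read 106.9, 160.8 and 115.9 in female ventral and 49.8, 29.9 and 41.7 in female dorsal libraries, without overlap (log2 change 1.64, limma, standard error 0.216, adjusted p = 0.00108). Emilin1, a matrix glycoprotein that restrains processing of the TGF-beta precursor, changed by 1.48 (adjusted p = 0.00101), and Fbn1, the fibrillin to which the binding proteins attach, by 1.60 (adjusted p = 0.00691). Itgav, Itgb5, Itgb8, Lrrc32, Thbs1 and Furin were the other 6 called genes of this list and are named after their values had been seen.

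Of the Smads and their nuclear partners, 3 of 15 were higher ventrally and 1 was lower in female hearts, beside 14.5% of all genes called higher and 13.3% called lower ventrally. Smad4, the common partner of the receptor-activated Smads, read 51.8, 66.0 and 65.9 ventrally and 30.2, 18.4 and 31.9 dorsally (log2 change 1.19, limma, standard error 0.222, adjusted p = 0.00476). The other 2 that rose, Ski (1.03, adjusted p = 0.00573), a corepressor of Smads, and Smurf2 (1.05, adjusted p = 0.00926), a ubiquitin ligase acting on receptors and Smads, are known as restraints of the pathway. The repressor Tgif2 was the one that was lower, by -1.37 (adjusted p = 0.0166), and is named after its value had been seen. Smad2 (-0.44, adjusted p = 0.0987), Smad3 (0.42, adjusted p = 0.210) and the inhibitory Smad7 (0.31, adjusted p = 0.525) did not pass.

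Of the other receptors of the superfamily, 3 of 9 were higher ventrally and 1 lower in female hearts. Over all genes tested, 14.5% were called higher and 13.3% lower ventrally. Most calls of these receptors were close to the threshold. Bmpr1a changed by 0.86 (adjusted p = 0.00627), Bmpr1b by 1.32 (adjusted p = 0.0367) and Acvr1 by 0.93 (adjusted p = 0.0391), all of them type I receptors of BMP signaling. Bmpr1a was called in 16 of 16 alternatives, Bmpr1b in 8 of 15 (adjusted p up to 0.180, in edgeR) and Acvr1 in 9 of 16 (up to 0.145, without female ventral library 2). Acvr2a, named after its value had been seen, changed by -0.64 (adjusted p = 0.0461), a call that was lost with the replicate block (adjusted p = 0.0506) and held in 7 of 16 alternatives. The endothelial type I receptor Acvrl1 did not pass (0.55, adjusted p = 0.0984). Of 7 other ligands and their antagonists, Inhba (1.84, adjusted p = 0.00570) and Inhbb (2.05, adjusted p = 0.00600), which encode the subunits of activins, were higher ventrally and 0 lower. Fstl3, an activin antagonist, was called in the fit over both sexes (0.59, adjusted p = 0.0223) and not in females alone (0.73, adjusted p = 0.0685), where the replicate block gave a call (adjusted p = 0.0411).

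Of 19 genes known to respond to TGF-beta, 6 were higher ventrally and 0 lower in females, with a median log2 change of 0.08. The shares over all genes were 14.5% higher and 13.3% lower. The 3 with the smallest p were fibrillar collagens: Col1a2 (2.79, adjusted p = 0.000830), Col1a1 (2.46, adjusted p = 0.000823) and Col3a1 (2.35, adjusted p = 0.00143). Col1a1 and Col3a1 also stand in the fibroblast list, whose sum was higher in the same libraries. In male hearts 0 genes of the 5 lists were called, where 0 of all 14917 genes tested were. The lists' median log2 changes in males were 0.06 (other receptors) to 0.42 (other ligands). With both sexes in 1 fit, 7 of 14 genes of latency and activation, 3 of 15 Smads and partners, 1 of 10 receptors, 6 of 19 responsive genes and 3 of 7 other ligands were higher ventrally, beside 9.8% of all genes (the receptors are at about that share). The call of Inhbb among these ligands was lost with the replicate block (adjusted p = 0.0632) and held in 12 of 22 alternatives. In that fit 1 Smad partner, Tgif2, was lower, and 0 genes of the other lists, beside 9.06% of all genes. Acvr1 and Bmpr1b were not called there (adjusted p = 0.225 and 0.158).

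**Figure D5:**
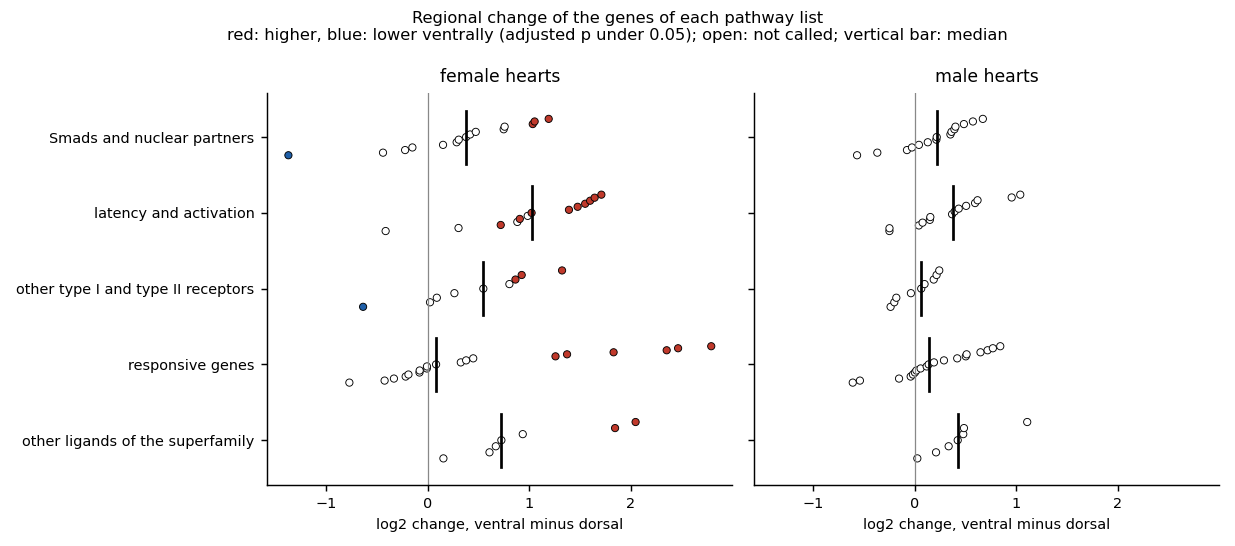
Log2 change (ventral minus dorsal, of normalized CPM plus 1; the same horizontal scale in both panels) of each gene of the 5 pathway lists in female (left) and male (right) hearts. Points are genes, red where higher and blue where lower ventrally at an adjusted p under 0.05 in limma, and vertical bars are medians. Of the genes of latency and activation, 9 of 13 tested are red in females. In males 0 of 14 are, where 0 of all 14917 genes tested were called.

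The genes whose pattern was most like that of each member were sought among 9597 genes with a mean of at least 10, by Pearson's r of log2 values over the 13 libraries. The libraries share region, sex and cell composition, so that r is a description. For Ltbp3 these were Zswim8 (r = 0.980), Col16a1 (0.977), a collagen, and Bmp1 (0.973), a protease that trims procollagens. Tgfb3 was most like Anpep (0.985), Rcn3 (0.970) and Lpar2 (0.961). For Tgfb2 they were Timp3 (0.924), an inhibitor of metalloproteinases, Fkbp9 (0.909) and Mmp16 (0.894), a metalloproteinase. Tgfbr2 went with Scap (0.914), B3gat3 (0.905) and Tagln2 (0.895), and Ltbp1 with Crebbp (0.893), Igf2r (0.885) and the integrin subunit Itgb5 (0.866). Tgfb1, at its few reads, had r of 0.849 with Srrm2, 0.835 with Rnf166 and 0.824 with March2.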

How the data were processed

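The 14 poly(A) RNA libraries, each of 2 pooled hearts, were sequenced as single reads of 60 bases. The authors trimmed adapters with Cutadapt, dropped short reads, quantified genes of GRCm38 with RSEM and normalized with limma, and considered genes reaching 1 CPM in 3 or more samples; strand use is not given in the sources used here, and the RSEM version is 1.3.1 per the submitters' processing notes and an earlier one per the study's methods, so which made the table is unsettled. The deposited signal is a normalized CPM. It equals reads plus 0.5 over an effective library size: 100.0% of values came out as whole reads (tolerance 0.02 reads), with column sums of 960113 to 1089818. The number of pools limits precision, and for Tgfb1 and Ltbp2 so do their few reads.

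Regions and sexes were compared in R 4.3.3 with the lmFit and eBayes (trend) functions of limma 3.58.1. The fits used log2(value + 1), whose pseudocount understates changes of low genes, and took in genes that reached 1 in 3 or more of the libraries compared. Benjamini-Hochberg adjustment ran over all genes of a fit. On the recovered reads, edgeR 4.0.16 (quasi-likelihood) called 3650 genes between regions in females, 0 in males and 2480 in both, 380 for the difference between the sexes' regional changes and 1540 between sexes. Scripts were tested on simulated data. Libraries of 1 number deviated together from their group means (correlations of 0.187, 0.169, 0.27, 0.427, 0.175 and 0.351 for numbers 1 to 6), so the numbers were treated as pairs in the fits with a replicate block. Positions, lengths (longest protein-coding transcript), GC content and shared windows came from GENCODE M21.

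The members and lists were chosen with earlier results of these data known. Of each pathway list, the 3 genes with the smallest adjusted p among those called in females, and in both sexes, are named, with Smad2, Smad3, Smad4, Smad7, Acvrl1 and Ltbp4. The settings tried instead were a pseudocount of 0.1, leaving out the filter, a minimum mean of 10, median-of-ratios and quantile scaling, eBayes without trend, edgeR, removal of a spline trend (5 degrees of freedom) on GC content and length, the replicate block with and without that removal, averaging by number, and each library left out in turn. The library of unsettled region was left out throughout.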

Additional observations from a re-analysis of the deposited data

Results flagged for a closer look

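Values far from the rest were sought only in the male ventral group, the one with 4 libraries. For 38 genes or marker sums searched there, where chance flags about 1 in 20, 3 stood apart. The groups of 3 libraries were not searched. Smad2 read 30.8 normalized CPM in library 5, against 23.5 to 24.6 in the other 3. Inhba, a subunit of activin, read 34.5 in the same library, against 17.9 to 20.6. The erythroid markers summed to 291 in library 7, against 34 to 68; this is also the library with the lowest Eng and the lowest blood endothelial sum, and what they share was not tested.

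Of the genes of latency and activation, 2 of 14 had a regional change that differed between the sexes by the test of the difference itself (limma, 4 groups). In that test 0 of 15 Smads and partners, 0 of 10 other receptors, 0 of 19 responsive genes and 0 of 7 other ligands were called. Over all 15772 genes 2.73% were called. Ltbp4 changed by 1.64 in females and 0.43 in males, a difference of -1.21 on the log2 scale (adjusted p = 0.0204, called in 19 of 23 alternatives). Its male libraries read 105.7 to 126.2 normalized CPM ventrally and 79.0 to 97.6 dorsally. Emilin1 changed by 1.48 in females and 0.39 in males, a difference of -1.08 (adjusted p = 0.0360, called in 14 of 23 alternatives). Sex and library number cannot be told apart in either. In the same test 0 of 12 epicardial markers were called, with 12 below 0 and a median difference of -1.69. The part of cell composition in the Ltbp4 and Emilin1 differences was not tested.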

How the results depend on the processing

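Leaving out 1 library at a time gave 2 to 5 members called in females, 1 to 3 in both sexes and 0 to 1 between the sexes. It turned the sign of changes that were not called: over these fits the log2 change ran from -0.61 to 0.22 for Tgfbr3, -0.048 to 0.21 for Eng and -0.34 to 1.12 for Ltbp2 in females, from -0.24 to 0.20 for Tgfb2, -0.32 to 0.17 for Eng and -0.21 to 0.03 for Ltbp1 in males, and from -0.13 to 0.16 for Tgfb1 and -0.12 to 0.13 for Eng in both sexes. After correction for GC content and length, 2 members were called in females and 0 between the sexes, and changes not called turned: Eng -0.11, Ltbp2 -0.16 and Smad7 -0.012 in females, Smad3 -0.020, Smad7 -0.015 and Acvrl1 -0.022 in both. With the replicate block they were 0.17 for Eng and 0.031 for Ltbp1 in males and 0.13 for Eng in both, and the block changed no call of a member other than that of Tgfbr2 in both sexes. With the replicate block and that correction together, 2 members were called in females, and Eng was -0.11, Ltbp2 -0.16 and Smad7 -0.012 in females, Eng 0.022 in males and Tgfb2 -0.0074 in both. Quantile scaling gave 0.049 for Tgfb2 in males and 0.059 for Eng in both. Tgfb1 in both sexes was 0.11 with a pseudocount of 0.1, 0.010 with median-of-ratios scaling and 0.17 in edgeR, where Eng was 0.013. Between the sexes 0 members were called by eBayes without trend, after the correction or with numbers averaged. The cause of these shifts was not tested. Of the other values for single genes, 1318 kept direction and side of the threshold, 12 gained a call and 89 lost one.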

Other observations

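The male library of unsettled region read 1.99 normalized CPM for Tgfb1, above all 7 male libraries of settled region (0.17 to 1.25), and 186 for Eng, above them as well (60.6 to 170.8). Its Tgfb3 (74.4) and Ltbp3 (38.4) lay within the male ventral range, Tgfbr1 (55.2), Tgfbr2 (43.9) and Ltbp2 (2.49) within the male dorsal range, and Tgfb2 (160) and Tgfbr3 (44.3) within both. Its Ltbp1 (22.9) lay within the male ventral range. These values assign it to neither region.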
